A study of Mus musculus with 10 samples.

Results

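The 10 genes described here encode subunits of the Polycomb repressive complexes PRC2 and PRC1 and the enzymes that undo the histone mark of PRC2. They are Ezh1, Ezh2, Suz12 and Eed of PRC2, Bmi1, Cbx2, Cbx7 and Cbx8 of PRC1, and the H3K27 demethylases Kdm6a and Kdm6b. They were taken by name from 24062 genes listed in the count files, and all 10 passed the filter on low counts (at least 1 CPM, the read count scaled to the library's total, in at least 2 libraries), as did 12221 genes in all. The data were RNA-seq counts from 10 mouse libraries in 4 groups. LSK cells, the Lin-SCA1+KIT+ stem and progenitor cells of C57BL/6J mouse marrow, were cultured with the cytokines SCF, FLT-3 ligand, IL-6 and IL-11 and then sequenced as a no Notch control (IgG, 4 libraries) or as sorted early T cell precursors (2 libraries each of DN1, DN2a and DN2b).

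The no Notch control had been kept for 14 days on human IgG1 coated at 5 µg/mL and was not sorted by stage. The DN cells grew on the Notch ligand Delta1 immobilized at 5 µg/mL and were sorted as KIT++CD44+CD25- (DN1), KIT++CD44+CD25+ (DN2a) or KIT+CD44loCD25+ (DN2b). IL-7 at 100 ng/mL was present for DN2a and DN2b but not for DN1 or the control. By the study's methods it was added at day 14, so the DN2 cells were harvested later than that. The labels give no culture day for the DN libraries. Between DN1 and the DN2 stages, therefore, stage, IL-7 and a possible difference in culture time cannot be told apart. Within each DN stage the library with the earlier date in its label is called replicate 1 and that with the later date replicate 2, and the control libraries were labelled D1, D2, R1 and R2, letters that the labels do not explain. The study's methods derive the replicates of a stage from independent LSK isolates, and take all 3 DN stages from each isolate. The 6 Delta1 libraries may thus share isolates and are not 6 independent ones, so SDs and p-values over them may be too small. No sample of freshly isolated LSK cells was analysed here, so each comparison with the control sets a ligand-grown, sorted population against an unsorted culture grown without ligand. Culture time may differ in these comparisons as well, and IL-7 differs for DN2a and DN2b.

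PRC2 places methyl groups on lysine 27 of histone H3, with either EZH2 or its paralogue EZH1 as the catalytic subunit and with SUZ12 and EED as obligatory partners. PRC1 complexes read that mark through CBX proteins and ubiquitinate histone H2A through a RING1 enzyme paired with a PCGF protein such as BMI1. KDM6A (UTX) and KDM6B (JMJD3) remove the mark. In blood formation EZH2 is best known from dividing progenitors and early lymphocytes, EZH1 from more quiescent and differentiated cells, and BMI1 from stem cell self-renewal, where it holds down the Cdkn2a locus.

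RefSeq promoter windows (GRCm38.p6) matched 8 of the 10 genes, all but Cbx2 and Kdm6b. Windows are shown for Ezh2 and Bmi1, whose transcripts were higher in every Delta1 library than in any control library, and for Ezh1, whose transcript was lower. They run 5′ to 3′ on the gene's strand, with CpG dinucleotides in capitals. For Ezh1 (chr11:101226464-101226713, minus strand) and Bmi1 (chr2:18676768-18677017, plus strand) they cover the 250 bases before the RefSeq start. For Ezh2 (chr6:47595059-47595183, minus strand) they cover the 125 bases of that window that lie outside every annotated exon of the gene. The GENCODE vM21 gene of Ezh2 (chr6:47530139-47595341) spans this window, so by that annotation the stretch lies within the gene and not before its start. The Cbx7 window (chr15:79932647-79932896) lies within its GENCODE gene too, and those of Eed and Cbx8 overlap theirs in part.
Ezh2: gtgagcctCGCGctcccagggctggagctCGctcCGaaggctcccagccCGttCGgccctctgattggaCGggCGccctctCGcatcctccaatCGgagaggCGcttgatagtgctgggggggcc
Bmi1: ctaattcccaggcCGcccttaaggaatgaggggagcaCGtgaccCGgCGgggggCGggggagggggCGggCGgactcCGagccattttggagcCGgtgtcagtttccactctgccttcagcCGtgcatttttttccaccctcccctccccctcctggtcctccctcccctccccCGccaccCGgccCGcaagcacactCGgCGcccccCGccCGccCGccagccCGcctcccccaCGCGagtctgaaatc
Ezh1: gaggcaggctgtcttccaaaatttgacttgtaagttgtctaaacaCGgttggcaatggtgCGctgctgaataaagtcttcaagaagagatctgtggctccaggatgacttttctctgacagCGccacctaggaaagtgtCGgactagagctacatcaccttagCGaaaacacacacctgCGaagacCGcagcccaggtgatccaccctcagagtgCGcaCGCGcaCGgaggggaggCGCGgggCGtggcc
The printed stretches hold 11, 21 and 14 CpGs, respectively. Over the whole 250 bases the observed over expected CpG ratio was 0.91 for Ezh2, 0.715 for Bmi1 and 0.738 for Ezh1, and across the 8 genes it ran from 0.652 (Eed) to 1.1 (Suz12), against a median of 0.374 over 32851 promoters with an upper quartile of 0.723. The letters of the core site of RBPJ, the DNA-binding partner of Notch (TGGGAA, either strand), occurred once among the 8 windows, on the minus strand 246 bases before the start of Bmi1, and in 21.6% of all promoters. The 4 words taken for E2F sites (TTTCCCGC, TTTCGCGC, TTTGCCGC and TTTGGCGC, either strand) occurred once, 219 bases before the start of Suz12, and in 1.86% of all promoters. A match is a description of the letters and not a site, and its absence says only that the letters are not in this window.

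The libraries held 12354635 to 35367925 reads in gene rows. In the control, Lyz2 was at 6209 to 13127 CPM and Cd3e at 0 in all 4 libraries, so the control cultures carried myeloid transcripts. Il2ra, which encodes CD25, was at 18.9 to 23.2 CPM in DN1 and at 1170 to 2175 CPM in the DN2 libraries. All 7 T lineage markers were higher over all Delta1 stages, with a summed level of 314 to 390 CPM in DN1, 2315 to 5389 CPM in DN2a and DN2b and 1.23 to 7.98 CPM in the control. Mast cell and basophil markers summed to 258 to 1399 CPM with Delta1 and 30.7 to 154 CPM without. Cpa3 alone was at 257 to 986 CPM with Delta1 and at 8.57 to 69.3 CPM in the control. Of these 4 markers, 3 were higher in DN1 over IgG, whereas in DN2a Cpa3 was higher and Ms4a2 and Mcpt8 lower, and in DN2b Cpa3 was higher and Fcer1a, Ms4a2 and Mcpt8 lower. The B lineage markers summed to at most 4.54 CPM anywhere. Of the NK and innate lymphoid markers, Gzma was at 203 to 4156 CPM with Delta1, while Ncr1 and Eomes stayed at or below 1.11 CPM. DN1 replicate 1 stood apart: the summed level of the 9 myeloid markers was 2076 CPM in it, 138 CPM in DN1 replicate 2 and 14.7 to 45.5 CPM in DN2a and DN2b, and it held 51.5 CPM of the erythroid factor Klf1 against 0.264 to 1.61 CPM in every other library. The 5 erythroid and megakaryocyte markers together summed to 475 CPM in DN1 replicate 1, 17.9 to 141 CPM in the other Delta1 libraries and 228 to 950 CPM in the control. Both platelet lineage genes among them were called in DN1 and ran in opposite directions. Pf4 was lower, at 45.5 and 1.64 CPM in DN1, at most 0.573 CPM in DN2a and DN2b and 219 to 947 CPM in the control, and Itga2b was higher, at 331 and 121 CPM in DN1, 17.2 to 139 CPM in DN2a and DN2b and 2.29 to 32.7 CPM in the control. In bulk RNA, fewer cells of a type and less transcript per cell cannot be told apart. The libraries also differed in how level depended on transcript length. The median of the longest 25% of genes minus that of the shortest 25%, each relative to the mean over libraries, was 0.30, -0.16, 0.45 and 0.62 on the log2 scale in IgG D1, D2, R1 and R2, -0.05 and 0.01 in DN1, and -0.42 to -0.15 in DN2a and DN2b.

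Across the 3 Delta1-grown stages together, Ezh2, Eed, Bmi1 and Cbx2 were higher than in the no Notch control, Ezh1 and Kdm6b were lower, and Suz12, Cbx7, Cbx8 and Kdm6a did not pass the test. These 6 of 10 calls (edgeR's quasi-likelihood test, adjusted p under 0.05 over all genes tested) stood against 54.8% of all 12221 genes called in the same comparison, so the share of these genes that changed was close to the background. The libraries of the Delta1 stages and of the control did not overlap in level for 5 of the 10 genes (Ezh1, Ezh2, Eed, Bmi1 and Cbx2), and for 38.1% of all genes tested. Stage by stage, 3 of 10 were called in DN1 over IgG, where 31.4% of all genes were, 4 of 10 in DN2a over IgG, where 45.5% were, and 4 of 10 in DN2b over IgG, where 42.5% were. Ezh2, Bmi1 and Cbx2 were called in each of the 3, and Kdm6b in DN2a and DN2b. These comparisons share their control libraries.

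**Figure D1:**
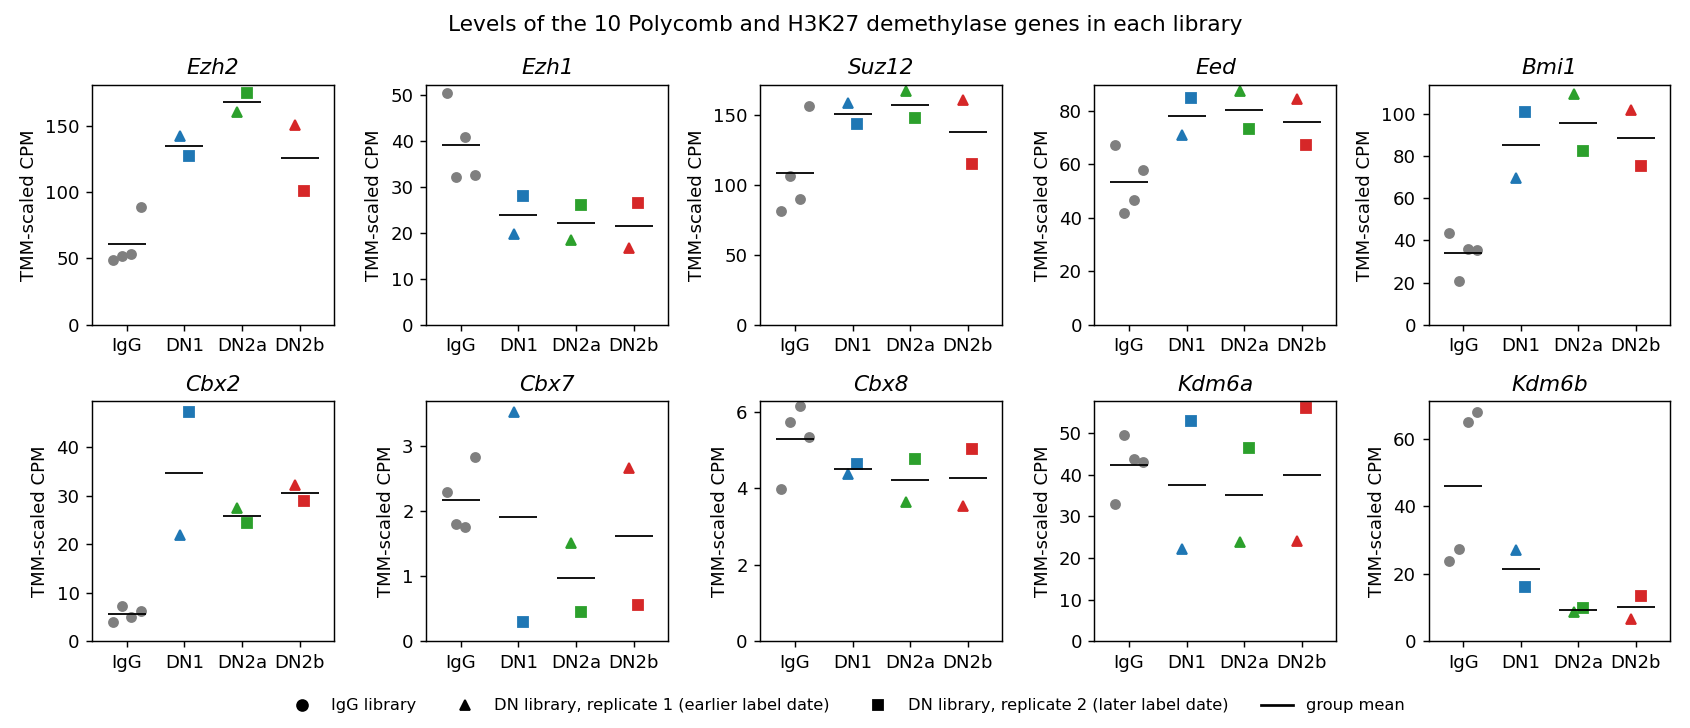
Level of each of the 10 genes in every library, in CPM scaled by TMM (edgeR's trimmed mean normalization), by group; points are libraries, with DN replicate 1 as triangles and DN replicate 2 as squares, and lines are group means. All 6 Delta1 libraries lie above the 4 IgG libraries for Ezh2, Eed, Bmi1 and Cbx2 and below them for Ezh1, the Eed groups by a margin too small to see, while Kdm6a is lower in replicate 1 of every DN stage.

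**Figure D2:**
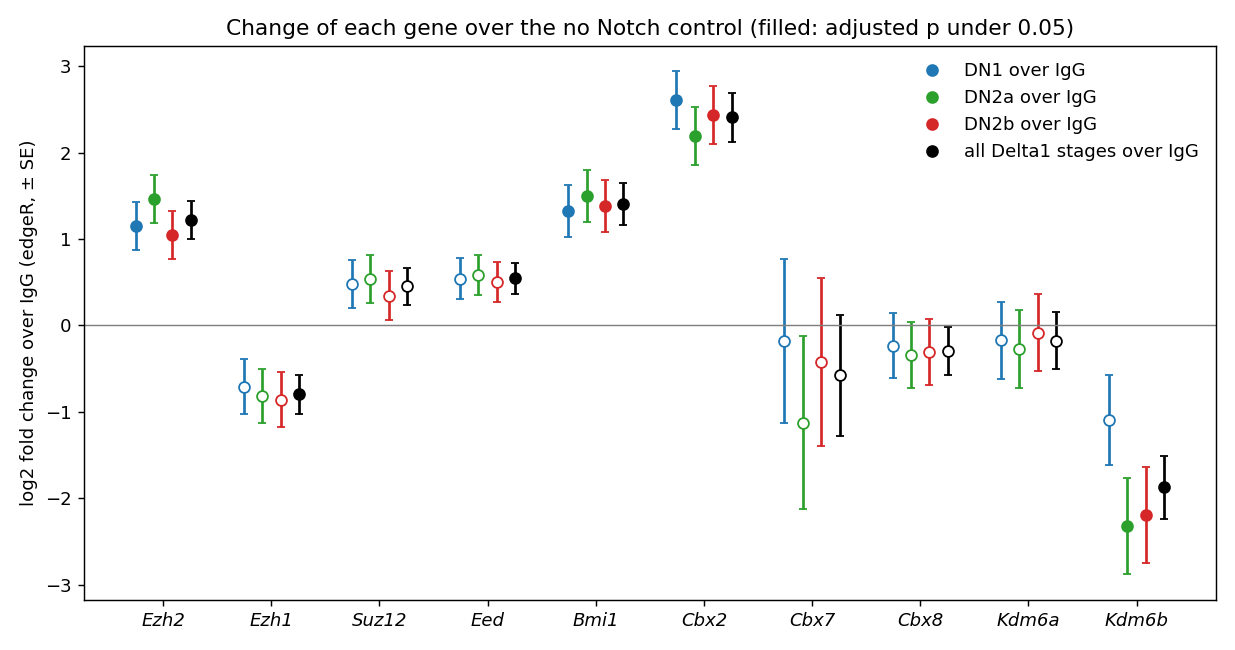
Fitted log2 fold change over the no Notch control with its SE for each gene, by stage and for all Delta1 stages together; filled points passed an adjusted p of 0.05. Cbx2 shows the highest and Kdm6b the lowest values in the comparison of all Delta1 stages, at 2.41 and -1.87.

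Ezh2 (chr6:47530139-47595341, minus strand; mm10, GENCODE vM21), the catalytic subunit of PRC2 in dividing cells, was at 142 and 127 CPM in DN1, 161 and 174 CPM in DN2a and 150.1 and 101 CPM in DN2b, in replicates 1 and 2. It was at 48.4, 51.8, 53.4 and 88.5 CPM in IgG D1, D2, R1 and R2. Every Delta1 library was above every control library, although IgG R2 stood well above the other controls. The log2 fold change was 1.22 ± 0.22 (SE; 6 against 4 libraries; adjusted p = 0.00149, edgeR's quasi-likelihood test) over all Delta1 stages, 1.15 in DN1 (adjusted p = 0.0136), 1.47 in DN2a (adjusted p = 0.00291) and 1.05 in DN2b (adjusted p = 0.0147). The call over all Delta1 stages held in all 18 alternative settings, and the DN1 and DN2b calls were each lost with IgG R1 and R2 as the only controls and without replicate 1 of that stage, with log2 fold changes of 0.92 to 1.40 and 0.74 to 1.32 over the alternatives.

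Because Ezh2 is known to follow cell division, genes of DNA replication and mitosis were read beside it. Of 17 such genes, 12 were higher over all Delta1 stages and none was lower, where 3035 of all 12221 genes were higher and 3662 lower. Their median log2 fold change was 0.80, against -0.03 over all genes. Those that rose included the replicative helicase subunits Mcm2 to Mcm7 (0.93 to 1.54) and Tyms, the thymidylate synthase (1.27 ± 0.19, adjusted p = 0.000560, edgeR's quasi-likelihood test). Mki67, Top2a, Aurkb, Plk1 and Rrm2 did not pass. Mki67, a marker of cycling cells, was at 199 and 34.6 CPM in DN1, 34.1 and 66.8 CPM in DN2a, 15.9 and 20.7 CPM in DN2b and 9.96 to 366 CPM in the control. Its log2 fold change was -1.67 ± 0.86 over all Delta1 stages (adjusted p = 0.126, edgeR's quasi-likelihood test) and -3.05 ± 1.38 in DN2b over IgG (adjusted p = 0.100). The Mki67 transcript is long (10061 bases). Among 492 tested genes of like length the median log2 fold change was -0.42 over all Delta1 stages and -0.42 in DN2b over IgG. The part of transcript length in the Mki67 values was not tested. The summed level of the 17 genes was 3883 to 7538 CPM in the Delta1 libraries and 2783 to 4194 CPM in the control, with IgG R2 the highest control here as for Ezh2. The part of cell division in the Ezh2 difference was not tested.

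Ezh1 (chr11:101191115-101226463, minus strand), the alternative catalytic subunit, ran the other way. Its level was 19.9 and 28.0 CPM in DN1, 18.4 and 26.1 CPM in DN2a, 16.6 and 26.5 CPM in DN2b, and 50.6, 32.2, 41.0 and 32.6 CPM in IgG D1, D2, R1 and R2. All Delta1 libraries were below all control libraries, and in each stage replicate 2, the later by label date, was above replicate 1. Over all Delta1 stages Ezh1 fell by 0.79 ± 0.23 on the log2 scale (adjusted p = 0.0145, edgeR's quasi-likelihood test), a call that was lost when only D1 and D2 (adjusted p = 0.0507) or only R1 and R2 (adjusted p = 0.0634) served as controls. In single stages the changes were -0.71 in DN1 (adjusted p = 0.116), -0.82 in DN2a (adjusted p = 0.0609) and -0.86 in DN2b (adjusted p = 0.0547). DESeq2 called Ezh1 in DN2a (adjusted p = 0.0325) and DN2b (adjusted p = 0.0314), and edgeR called it in DN2b without IgG D2 (adjusted p = 0.0493).

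A ratio of Ezh2 to Ezh1 per kilobase of transcript, formed after both levels had been seen and therefore given without a test, put the shift in one number. It was 10.8 and 6.84 in DN1, 13.2 and 10.1 in DN2a, 13.6 and 5.75 in DN2b, and 1.45, 2.43, 1.97 and 4.10 in IgG D1, D2, R1 and R2. Ezh2 was thus the more abundant transcript in every library, by a mean ratio of 10.1 ± 3.23 (SD, n = 6) with Delta1 and of 2.48 ± 1.15 (SD, n = 4) without.

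**Figure D3:**
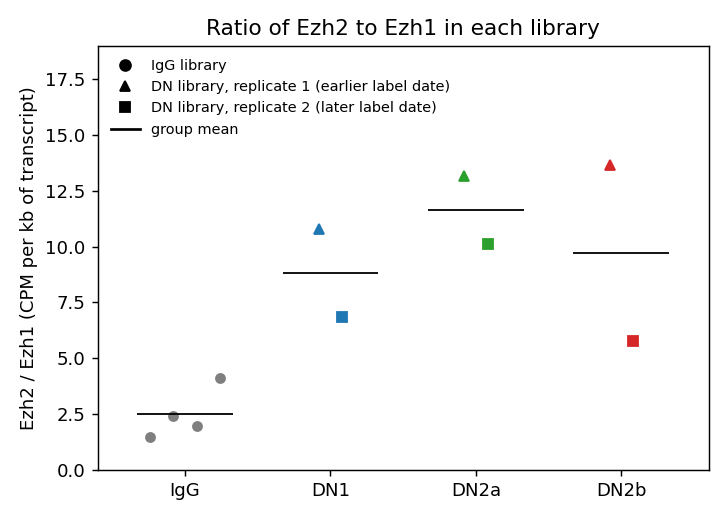
Ratio of Ezh2 to Ezh1, both in CPM per kilobase of transcript, in each library by group; lines are group means. The Delta1 libraries lie between 5.75 and 13.6 and the IgG libraries between 1.45 and 4.10.

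Suz12 and Eed, the partners without which PRC2 has no activity, moved less. Suz12 (chr11:79993106-80034123, plus strand) was at 159 and 144 CPM in DN1, 167 and 148 CPM in DN2a, 161 and 115 CPM in DN2b, and 81.2, 106 and 89.8 CPM in IgG D1, D2 and R1, but 156 CPM in IgG R2, so that the groups overlapped. Its log2 fold change over all Delta1 stages was 0.46 ± 0.22 (adjusted p = 0.0984, edgeR's quasi-likelihood test). Without IgG R2 the change was 0.68 and passed (adjusted p = 0.0142), and with the length trend of each library removed it was 0.62 and passed (adjusted p = 0.0285). Eed (chr7:89954654-89980983, minus strand) was at 71.1 and 84.7 CPM in DN1, 87.3 and 73.0 CPM in DN2a, 84.2 and 67.2 CPM in DN2b, and 67.1, 41.9, 46.6 and 58.0 CPM in IgG D1, D2, R1 and R2. The lowest Delta1 library of Eed barely cleared the highest control, and the rise of 0.54 ± 0.18 on the log2 scale (adjusted p = 0.0291, edgeR's quasi-likelihood test) was called in only 11 of 18 alternative settings. It was lost without DN1 replicate 2 (adjusted p = 0.0546), DN2a replicate 1 (0.0684), DN2b replicate 1 (0.0691), IgG D2 (0.0597) or IgG R1 (0.0941), with D1 and D2 as the only controls (0.159), and with the length trend removed (0.0685). In the main fit no single stage passed for Suz12 or Eed, but some passed in alternatives by the same test. Suz12 passed without IgG R2 in DN1 (adjusted p = 0.0459) and DN2a (0.0260), and in DN2a with the length trend removed (0.0454). Eed passed in DN1 without TMM (0.0374) and in DN2a without IgG D1 (0.0373).

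Among the PRC1 genes, Bmi1 (chr2:18677018-18686629, plus strand), which encodes the PCGF partner of the RING1 ubiquitin ligases, was higher in every stage. It stood at 69.5 and 101 CPM in DN1, 109 and 82.5 CPM in DN2a, 102 and 75.2 CPM in DN2b, and at 43.3, 21.0, 35.9 and 35.3 CPM in IgG D1, D2, R1 and R2. No Delta1 library came down to the control range. The log2 fold change was 1.41 ± 0.24 over all Delta1 stages (adjusted p = 0.00113, edgeR's quasi-likelihood test; 18 of 18 settings), and 1.33, 1.50 and 1.39 in DN1, DN2a and DN2b (adjusted p = 0.0105, 0.00384 and 0.00601). The DN1 call was lost without DN1 replicate 2 and with only D1 and D2 as controls, and the DN2b call without DN2b replicate 1. The progenitor markers Kit, Flt3 and Cd34 were read beside Bmi1: 3 of 3 were higher in DN1 over IgG, 1 was higher (Kit) and 1 lower (Flt3) in DN2a, none was called in DN2b, and 2 (Kit and Cd34) were higher over all Delta1 stages. Their summed level was 750 to 1399 CPM in DN1, 252 to 378 CPM in DN2a and DN2b and 81.7 to 269.6 CPM in the control, and their part in the Bmi1 difference was not tested.

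Cbx2 (chr11:119022962-119031270, plus strand), a CBX protein that binds the H3K27 mark and compacts chromatin, showed the largest fold change of the 10 genes over all Delta1 stages. Its level was 22.0 and 47.3 CPM in DN1, 27.4 and 24.4 CPM in DN2a, 32.2 and 29.1 CPM in DN2b, and 4.03, 7.24, 5.05 and 6.34 CPM in IgG D1, D2, R1 and R2. The lowest Delta1 library, DN1 replicate 1, was well above the highest control library. Cbx2 was 5.32-fold higher over all Delta1 stages (log2 fold change 2.41 ± 0.29, adjusted p = 0.000146, edgeR's quasi-likelihood test). The single-stage values were 2.61, 2.19 and 2.43 in DN1, DN2a and DN2b (adjusted p = 0.000989, 0.00120 and 0.000778). None of these 4 calls was lost in any alternative setting, but the DN1 value was 1.96 without DN1 replicate 2 and 3.06 without DN1 replicate 1.

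The neighbouring gene Cbx8 (chr11:119036305-119040969, minus strand), also a mark-binding CBX gene, stayed between 3.54 and 6.13 CPM in all libraries and did not pass (log2 fold change -0.29 ± 0.28, adjusted p = 0.394, edgeR's quasi-likelihood test). Cbx7 (chr15:79915807-79971119, minus strand), the CBX gene associated with stem cell self-renewal, was the scarcest of the 10. It was at 3.52 and 0.299 CPM in DN1, 1.50 and 0.445 CPM in DN2a, 2.67 and 0.557 CPM in DN2b, and 2.30, 1.80, 1.76 and 2.84 CPM in the controls. In each stage replicate 2 was the lower, with 6 or 7 reads of Cbx7 in each, against a detection floor of 3 reads. Neither the difference from the control (-0.58 ± 0.70, adjusted p = 0.507) nor that between later and earlier label dates within stages (-2.51 ± 0.66, lower in 3 of 3 stages, adjusted p = 0.324) passed the threshold over all genes in edgeR's quasi-likelihood test. Leaving out 1 library at a time moved the first value from -1.46 (without DN1 replicate 1) to -0.28 (without DN1 replicate 2), and that for DN2a over IgG, -1.13, from -2.27 (without DN2a replicate 1) to -0.53 (without DN2a replicate 2).

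Kdm6b (chr11:69398508-69413675, minus strand), the demethylase induced in inflammatory and myeloid cells, was lower in the DN2 stages. It was at 27.1 and 16.0 CPM in DN1, 8.55 and 9.87 CPM in DN2a, 6.74 and 13.4 CPM in DN2b, and 24.0, 27.2, 65.0 and 68.1 CPM in IgG D1, D2, R1 and R2. All DN2 libraries were below all controls, while DN1 replicate 1 lay within the control range. Kdm6b fell by 1.87 ± 0.37 on the log2 scale over all Delta1 stages (adjusted p = 0.00221, edgeR's quasi-likelihood test), and its changes were -2.32 ± 0.56 in DN2a (adjusted p = 0.00896), -2.20 ± 0.56 in DN2b (adjusted p = 0.0123) and -1.10 ± 0.52 in DN1 (adjusted p = 0.136).

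The size of the Kdm6b difference depended on the controls. With D1 and D2 alone it was -1.06 over all Delta1 stages (adjusted p = 0.0445) and with R1 and R2 alone -2.40 (adjusted p = 0.000813), and the DN1 value went from -0.27 (adjusted p = 0.685) to -1.63 (adjusted p = 0.0241). The DN2a call was lost without either DN2a library, and the DN2b call without DN2b replicate 1 or with only D1 and D2. The Kdm6b transcript is long (6.65 kb), and the 1507 tested genes within 20% of its length had a median log2 fold change of -0.39 over all Delta1 stages. With the length trend removed, an alternative chosen after seeing the data, Kdm6b was at -1.43 (adjusted p = 0.00359). The 9 myeloid markers summed to 24695 to 62458 CPM in the control and to 14.7 to 2076 CPM in the Delta1 libraries, all 9 being called lower, and the part of the myeloid cells in the Kdm6b difference was not tested.

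Kdm6a (chrX:18162575-18279936, plus strand) removes the same mark within the MLL3/4 complexes and is known to escape X inactivation. Its level was 22.2 and 52.9 CPM in DN1, 23.8 and 46.5 CPM in DN2a and 24.1 and 55.9 CPM in DN2b, in replicates 1 and 2. The controls were at 32.9, 49.6, 43.7 and 43.1 CPM in IgG D1, D2, R1 and R2. Replicate 2 was above replicate 1 in every stage. The means were 42.3 ± 6.91 CPM (SD, n = 4) in IgG and 37.6 ± 15.8 CPM (SD, n = 6) with Delta1. The latter pools low and high replicates, so the closeness of these means does not show that the ligand had no effect. The log2 fold change over all Delta1 stages was -0.17 ± 0.33 (adjusted p = 0.672, edgeR's quasi-likelihood test), and it turned to 0.14 (adjusted p = 0.740) when the length trend was removed.

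Between label dates, a comparison added after the data were seen, Kdm6a differed by 1.14 ± 0.16 on the log2 scale (later over earlier within stages; 3 against 3 libraries; higher in 3 of 3 stages), with an adjusted p of 0.205 by edgeR's quasi-likelihood test. In that comparison edgeR called 0% of 11316 genes, 1397 had an unadjusted p under 0.05, and DESeq2 called 427 genes, Kdm6a among them. In edgeR the Kdm6a difference was 1.12 without DN1 replicate 1 and 1.10 without DN1 replicate 2. Genes of the sex chromosomes are given beside Kdm6a, and neither Xist (adjusted p = 0.0959) nor Uty (adjusted p = 0.250) passed between label dates in edgeR's quasi-likelihood test. Xist, the RNA of the inactive X chromosome, was at 0.0371 and 29.0 CPM in DN1, 0.394 and 63.5 CPM in DN2a, 0 and 86.4 CPM in DN2b, and 1.23, 20.9, 34.9 and 63.9 CPM in IgG D1, D2, R1 and R2. Uty, the paralogue of Kdm6a on the Y chromosome, was at 12.7 and 5.48 CPM in DN1, 30.9 and 3.64 CPM in DN2a, 31.1 and 6.84 CPM in DN2b, and 22.8, 2.90, 3.79 and 7.78 CPM in the controls. The 4 libraries lowest in Xist were thus the 4 highest in Uty and the 4 lowest in Kdm6a, and the same 4 were highest in the sum of Ddx3y, Eif2s3y and Kdm5d (89.4 to 178 CPM, against 19.7 to 56.6 CPM in the others). Kdm6a and Uty together, a sum formed after their levels were seen, came to 35.0 CPM in DN1 replicate 1 and to 47.5 to 62.7 CPM in the other 9 libraries. The sex of the donor mice is not in the labels, and its part in the Kdm6a levels was not tested.

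**Figure D4:**
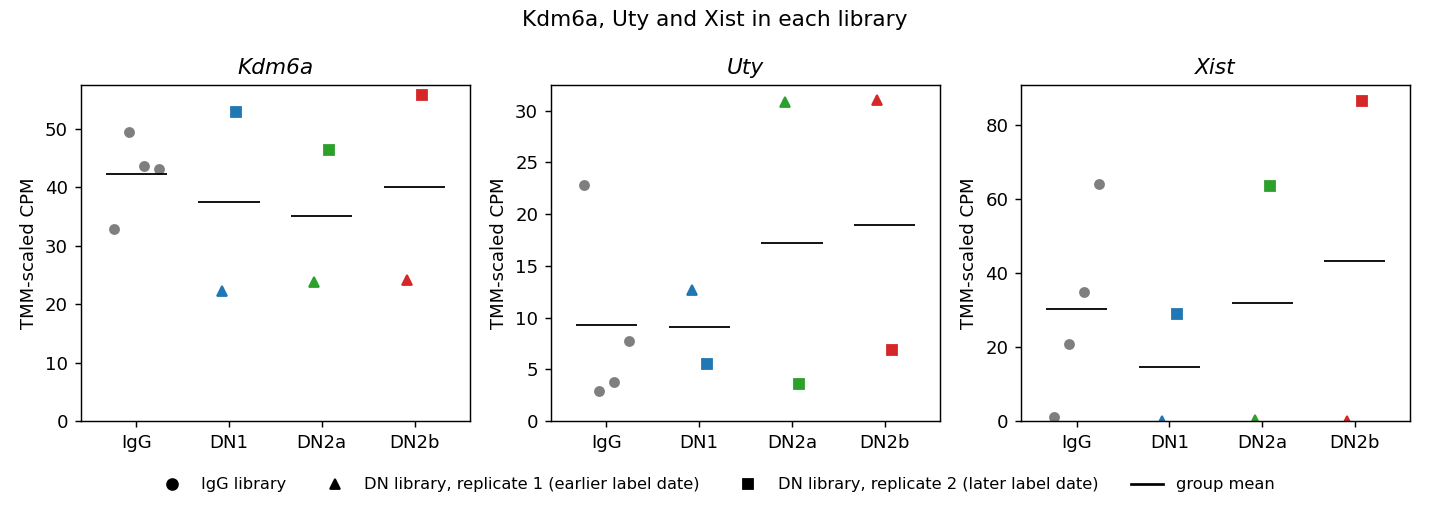
Levels of Kdm6a, its Y-linked paralogue Uty and the X-linked RNA Xist in each library, in TMM-scaled CPM, by group; points are libraries and lines are group means. Replicate 1 of DN1, DN2a and DN2b and IgG D1 are low in Kdm6a and Xist and high in Uty.

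Between the Delta1-grown stages, none of the 10 genes was called. Over DN1, DN2a called 0.401% of all genes, and the 10 genes had log2 fold changes of -1.23 to 0.32 with adjusted p of 0.496 or more in edgeR's quasi-likelihood test. DN2b called 1.91% over DN1 (member changes of -1.10 to 0.09, adjusted p of 0.462 or more) and 0% over DN2a (-0.42 to 0.70), where 335 genes had an unadjusted p under 0.05 and DESeq2 called 29. These tests had 2 libraries a stage and an SE of 0.28 to 1.12 on the log2 scale for these genes, so a p that missed the threshold does not show that the stages were alike. Kdm6b had the lowest values, at -1.23 ± 0.58 in DN2a over DN1 and -1.10 ± 0.58 in DN2b over DN1, and both DN1 libraries lay above all DN2 libraries but were themselves far apart, at 27.1 and 16.0 CPM. For Ezh2 the mean went from 135 ± 10.8 CPM (SD, n = 2) in DN1 to 167 ± 9.72 CPM in DN2a and 126 ± 34.7 CPM in DN2b, which the spread in DN2b does not let be ordered.

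Set side by side per kilobase of transcript, the means of the 2 libraries of a stage put the 5 highest genes in the same order in the 3 Delta1 stages, running from Ezh2 (45.0 to 60.1 CPM per kb in the stage means) through Eed (36.6 to 38.8), Suz12 (31.5 to 36.1) and Bmi1 (23.7 to 26.7) to Cbx2 (6.81 to 9.10). Single libraries did not all keep this order. Suz12 (36.3 CPM per kb) was above Eed (34.4) in DN1 replicate 1, and Kdm6a (7.83 and 9.41) was above Cbx2 (6.41 and 7.63) in replicate 2 of DN2a and DN2b. The SD of Eed (4.65 to 5.84, n = 2) exceeded its gap to Suz12 in the means of each stage. The control began instead with Eed (25.8 ± 5.50, SD, n = 4), Suz12 (24.8 ± 7.68) and Ezh2 (21.7 ± 6.74), which lay within each other's spread, followed by Bmi1 (9.43 ± 2.60) and Ezh1 (9.29 ± 2.05). Kdm6a and Kdm6b stood at 7.13 ± 1.16 and 6.92 ± 3.56 CPM per kb in the control, where they did not differ beyond their spread. In DN2a and DN2b Kdm6a was at 5.92 and 6.74 and Kdm6b at 1.38 and 1.51 CPM per kb. Cbx8 (1.17 to 1.48) and Cbx7 (0.288 to 0.641) closed the order of the means in every group. In the control, however, Cbx8 (1.48 ± 0.261, SD, n = 4) and Cbx2 (1.49 ± 0.371) did not differ beyond their spread.

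The 9 other PRC2 genes split in direction, 4 higher and 3 lower over all Delta1 stages, where 54.8% of all genes were called (3035 higher and 3662 lower). Those that rose were Mtf2, which brings PRC2 to CpG-rich DNA (1.62 ± 0.24 on the log2 scale), the histone-binding subunits Rbbp7 (1.25 ± 0.20) and Rbbp4 (1.16 ± 0.20), and Epop, listed as E130012A19Rik (1.05 ± 0.31). Those that fell were Phf1 (-2.11 ± 0.50) and Phf19 (-1.97 ± 0.42), which like Mtf2 are Polycomb-like proteins, and the accessory subunit Jarid2 (-1.92 ± 0.47). Their adjusted p ranged up to 0.0175 in edgeR's quasi-likelihood test. The 3 Polycomb-like genes therefore did not move together: Mtf2 was at 86.0 to 221 CPM with Delta1 and at 41.4 to 63.6 CPM without, whereas Phf1 was at 0.823 to 5.49 against 6.62 to 16.0 CPM and Phf19 at 0.867 to 5.89 against 4.49 to 11.6 CPM. With only D1 and D2 as controls, Phf1 (-1.76) and Jarid2 (-1.11) did not pass, and with only R1 and R2 they were at -2.41 and -2.45. Epop was at 1.76 with the D controls and at 0.57 with the R controls, and passed with both.

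Of 19 other PRC1 genes, 18 were tested, of which 3 were higher, 2 lower and 13 not called, a smaller share called than the 54.8% of all genes. Pcgf6, a PCGF protein of a variant PRC1, was at 28.4 to 44.6 CPM with Delta1 and at 5.62 to 8.84 CPM without (2.27 ± 0.22, adjusted p = 5.37e-05, edgeR's quasi-likelihood test). Rnf2, the main RING1-type ubiquitin ligase (0.87 ± 0.21), and the polyhomeotic gene Phc1 (0.91 ± 0.26) also rose. Bcorl1 (-2.11 ± 0.31) and Rybp, a subunit of variant complexes (-1.41 ± 0.17), fell. With only D1 and D2 as controls Rnf2 and Phc1 did not pass, and Phc1 was also lost with only R1 and R2 and without IgG R1. Phc1 was highest in DN1, at 15.2 to 26.1 CPM. It was at 9.48 to 12.3 CPM in DN2a, which overlapped the control (5.69 to 9.70 CPM), and at 11.9 to 12.9 CPM in DN2b. Of the other PCGF genes, none of Pcgf1, Pcgf2, Pcgf3 and Pcgf5 was called.

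The next values are also for all Delta1 stages over IgG, where 54.8% of all genes were called. Of the 3 tested genes of PR-DUB, the enzyme that removes the PRC1 mark, 1 was called and 2 were not. Asxl1 was lower (-0.53 ± 0.17, adjusted p = 0.0263, edgeR's quasi-likelihood test) but at -0.11 (adjusted p = 0.552) with the length trend removed. Of 9 genes of the MLL3/4 complex that holds KDM6A, 5 were not called. Ash2l (0.74 ± 0.16) and Dpy30 (0.72 ± 0.21) rose and Kmt2d, its methyltransferase (-1.52 ± 0.41), and Ncoa6 (-1.43 ± 0.40) fell. Both H3K27 acetyltransferases fell, Ep300 by 1.97 ± 0.32 and Crebbp by 1.62 ± 0.52 on the log2 scale. Kmt2d, Ncoa6, Ep300 and Crebbp are longer than most, with medians of -0.32 to -0.48 among genes of like length. With the length trend removed their changes were -0.86 (adjusted p = 0.00629), -0.96 (0.0341), -1.49 (0.000502) and -1.01 (0.0559), and Dpy30 was at 0.24 (0.277). With only D1 and D2 as controls, Kmt2d (-0.59), Ncoa6 (-0.79), Crebbp (-0.37), Dpy30 (0.45) and Asxl1 (-0.25) did not pass. With only R1 and R2 they were at -2.08, -1.88, -2.28, 0.99 and -0.79, and all 5 passed. Asxl1 and Crebbp passed in only 9 and 10 of 18 alternatives. Cdkn2a, the locus that BMI1-containing PRC1 is known to repress, was at 0.299 to 2.19 CPM with Delta1 and 0.323 to 2.82 CPM without and was not called, and Cdkn2b was too low to be tested. In DN2b over DN1, where 1.91% of all genes were called, none of the genes of these 6 lists was.

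**Figure D5:**
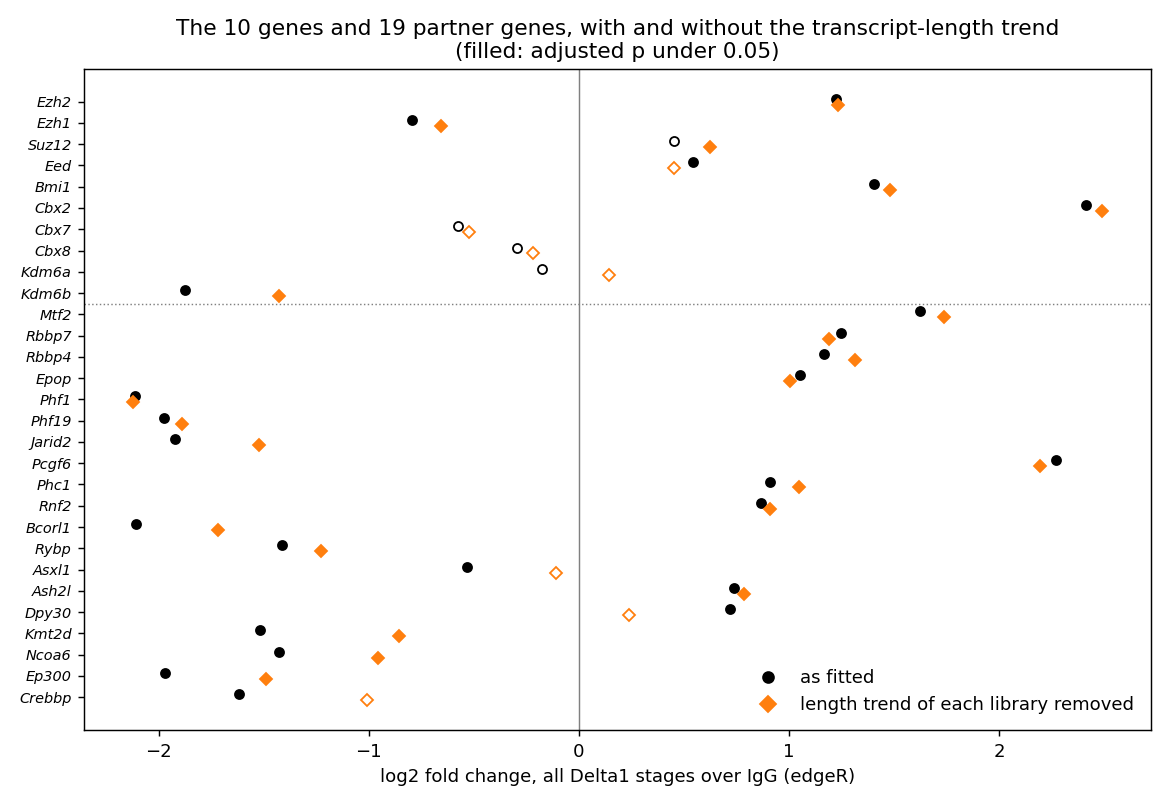
Fitted log2 fold change of all Delta1 stages over IgG for the 10 genes (above the dotted line) and for 19 called genes of the partner lists, as fitted (black) and with the transcript-length trend of each library removed (orange); filled points passed an adjusted p of 0.05. Eed, Asxl1, Dpy30 and Crebbp lose the call, Suz12 gains it, and Kdm6a changes sign.

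The genes whose log2(CPM + 1) followed a member most closely over the 10 libraries, by Pearson's r, are given as a description. For Ezh2 they were Serbp1 (0.986), Nup85 (0.983) and Nop58 (0.982). For Bmi1 they were 0610010F05Rik (0.990), Ttc27 (0.988) and Mmachc (0.986). For Ezh1 they were Armcx3 (0.982), Slc35f5 (0.976) and Rnase4 (0.969), and for Kdm6b they were Tet3 (0.986), a DNA demethylation enzyme, Kdm3b (0.980) and Setd1b (0.979), both histone-modifying enzymes. The points share the split between Delta1 and control libraries, and the length trend of each library was not removed from these levels.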

How the data were processed

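The deposited files hold raw read counts per gene, 1 file per library, which the authors made from Illumina TruSeq Stranded Total RNA libraries: the first 36 bases of the first read were aligned to mm10 with TopHat2 (2.12 in the submitters' processing notes, which also name Cufflinks 2.2.1) and counted with HTSeq 0.6.1p1 in its intersection-strict mode. The annotation and strand setting are not given in the sources used here, so reads of overlapping antisense genes may be included. The 5 summary lines (20.5 to 41.0% of each file; reads without a unique alignment 16.4 to 30.1%) were dropped, and reads shared by near-identical genes are among them. Groups came from the GEO labels.

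The 10 genes and all gene lists were chosen with earlier results of these data known. Counts were fitted with edgeR 4.0.16 in R 4.3.3 (TMM, quasi-likelihood test, at least 1 CPM in at least 2 libraries, prior count 0.125, 1 fit of 4 groups without a replicate block, 7 comparisons, Benjamini-Hochberg adjustment over 12221 genes) and checked on simulated data. The replicate numbers follow the label dates, and the study's methods take the 3 DN stages from each LSK isolate without saying which libraries share one. Same-numbered libraries deviated from their stage means with correlations across genes of 0.06 (DN1 and DN2a), 0.19 (DN1 and DN2b) and 0.45 (DN2a and DN2b, which share their label dates). CPM values are TMM-scaled. Transcript lengths were those of the longest GENCODE vM21 coding transcript (12132 of the tested genes). All 10 genes were named in every comparison; from the other lists, those past an adjusted p of 0.05 in all Delta1 stages over IgG or in DN2b over DN1, at most 4 per list and direction by size, and for 4 genes the 3 with the highest Pearson's r. The values of 1 gene of these lists are not reported here. The alternatives were DESeq2 1.42.0, no TMM, other filters, a prior count of 2, only the groups compared, only D or only R controls, a block by replicate number, and each library left out. Removal of each library's length trend (lowess span 0.3) and the comparison of label dates were added after seeing the data. The figures were drawn with matplotlib 3.10.9.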

Additional observations from a re-analysis of the deposited data

Results flagged for a closer look

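In 31 sets of 4 IgG libraries, 1 for each gene named with a tested change and for Uty and Xist, a library was compared with the others by Dixon's criterion, which chance meets in about 1 in 20 sets. It was met by 3. Ezh2 was at 88.5 CPM in IgG R2 against 48.4 to 53.4 CPM in the others. Rbbp4 was at 482 CPM in IgG D2 against 326 to 348 CPM. Phf1 was at 16.0 CPM in IgG R1 against 6.62 to 7.50 CPM. The library that stood apart was a different one for each gene.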

How the results depend on the processing

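For the comparisons with the control, the calls of Ezh2, Bmi1, Cbx2 and Kdm6b over all Delta1 stages held in all 18 alternatives, and those of Eed and Ezh1 did not (see the values given with each gene). Of the 522 alternative values of the 29 genes named in that comparison, 483 kept their sign and their side of the threshold. The cause of the changes below was not tested. With D1 and D2 as the only controls, 2329 genes were called in DN1 over IgG (3834 with all controls) and 3264 in DN2b over IgG (5190). DESeq2 called 473 genes in DN2a over DN1 (49 by edgeR), 29 in DN2b over DN2a (0), 821 in DN2b over DN1 (233) and 427 between label dates (0), 1 of the 10 genes (Kdm6a) among the last. Without a filter 101 genes were called in DN2a over DN1, 1 in DN2b over DN2a and 18 between label dates, and without TMM 1 was between label dates. With only the groups compared, 25 were called in DN2a over DN1 and 80 in DN2b over DN1. The replicate block could be set for the 6 DN libraries alone, which gave 58 genes with it and 32 without it in DN2a over DN1, 233 and 187 in DN2b over DN1, and 0 and 0 in DN2b over DN2a, with none of the 10 genes called.

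Without TMM the change in DN1 over IgG turned to 0.12 for Cbx7, 0.023 for Cbx8 and 0.062 for Kdm6a. With the length trend removed, Kdm6a turned to 0.0039 in DN1, 0.16 in DN2a, 0.27 in DN2b and 0.14 over all stages. Levels over all lines of the files, summary lines included, put the median gene of the 10 at 29.1 CPM in IgG, 21.3 CPM in DN2a and 22.5 CPM in DN2b (40.7, 30.5 and 35.3 CPM as reported).

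Leaving out 1 library at a time gave 1867 (without DN1 replicate 2) to 4163 genes in DN1 over IgG, 2686 (without DN2a replicate 1) to 6016 in DN2a over IgG, 2683 (without DN2b replicate 1) to 5674 in DN2b over IgG, with 1 to 5 of the 10 genes in the last, 0 (without DN2a replicate 1) to 229 (without DN1 replicate 2) in DN2a over DN1, 0 to 1 in DN2b over DN2a, 51 (without DN2b replicate 2) to 383 (without DN1 replicate 2) in DN2b over DN1, and 5 to 1258 between label dates, with 0 to 1 of the 10 genes. A lone library left in a stage was assumed to vary like the other groups. Cbx7 ranged from -2.84 to 0.70 in DN1 over IgG and from -1.95 to 0.30 in DN2b over IgG, and Kdm6a from -0.92 to 0.32, from -0.83 to 0.14 and from -0.80 to 0.40 in DN1, DN2a and DN2b over IgG. Between the DN stages, changes of the 10 genes other than those printed switched sign in 18 of 171 values for DN2a over DN1, 13 of 190 for DN2b over DN2a and 17 of 171 for DN2b over DN1, and none passed the threshold.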
